A study of Mus musculus with 24 samples.

Results

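The 10 genes described here, Prph2, Rom1, Rp1, Rp1l1, Abca4, Prom1, Cdhr1, Tulp1, Impg1 and Impg2, build and maintain the outer segment of the photoreceptor. They were chosen by symbol, all 10 were found in a RefSeq gene table of GRCm38.p6, and they were read against 21887 protein-coding genes of that table. The study profiled retina of wild-type mice by CUT&RUN, 2 days (P2) and 17 days (P17) after birth. In this assay an antibody directs a nuclease to a chromatin protein and the released DNA is sequenced. Each age had 4 SOX8 libraries, made with 2 antibodies, and a pair of libraries for each of SOX9, the histone marks H3K4me3 and H3K27ac, and nonspecific IgG, from 600000 nuclei per reaction. Both groups are retina nuclei with no sorting, other genotype or treatment in the labels, the strain is not given, and whether libraries came from separate animals is not given in the sources used here.

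The outer segment is a modified cilium filled with stacked membrane discs in which light is captured. In the mouse it forms after birth, later than P2. PRPH2 and ROM1 are tetraspanins that shape the disc rim. RP1 and RP1L1 bind the microtubules of the axoneme, and PROM1 and CDHR1 lie where new discs form. ABCA4 moves retinoid products across the disc membrane, TULP1 helps carry proteins to the outer segment, and IMPG1 and IMPG2 are proteoglycans of the matrix around it. H3K4me3 is a histone mark of active start sites and H3K27ac one of active start sites and enhancers. SOX8 and SOX9 are related transcription factors that in the mature retina are known chiefly from Müller glia, not from photoreceptors.

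The data were 8 lists of peaks, 1 for each of SOX8, SOX9, H3K4me3 and H3K27ac at each age, and a peak here is an interval with a start and an end. The SOX lists held 2400 to 5476 peaks and the H3K4me3 lists 9134 and 9629. H3K27ac had 287845 peaks at P2 and 29909 at P17, so that counts in these last lists are not comparable between ages. No list separates replicates or gives peak heights, so nothing below has a replicate error or a test. Library depth is unknown, and the IgG libraries were not analysed here. As a check of the tissue, P17 H3K4me3 peaks in the gene or its 5 kb flanks were counted, found at 50.9% of protein-coding genes. They lay at 8 of 8 photoreceptor transcription factor genes, 5 of 10 Müller glia markers and 3 of 8 markers of retinal pigment epithelium. They lay at 1 of 6 markers of microglia and 1 of 6 of endothelium. Where a start site was listed, they covered it in 8 of 8 transcription factor genes and 1 of 8 Müller glia markers. For pigment epithelium it was 0 of 7, for microglia 0 of 4 and for endothelium 1 of 4, against 46.0% of genes. In unsorted retina, more cells of a type and more of a mark per cell cannot be told apart.

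The table of promoter sequences from RefSeq (GRCm38.p6) matched 8 of the 10 genes, all but Rp1 and Rp1l1. The 250 bases before the start site are printed for the 4 genes with a P17 SOX9 peak over that site, Prph2, Rom1, Prom1 and Tulp1. They are followed by the genes with the largest share of the body under P17 H3K27ac among those without any SOX peak, Cdhr1 and Abca4. Each runs 5′ to 3′ in the direction of transcription and ends at the base before the start. Capitals mark matches to the motifs described below.
Prph2, chr17:46910228-46910477, strand +: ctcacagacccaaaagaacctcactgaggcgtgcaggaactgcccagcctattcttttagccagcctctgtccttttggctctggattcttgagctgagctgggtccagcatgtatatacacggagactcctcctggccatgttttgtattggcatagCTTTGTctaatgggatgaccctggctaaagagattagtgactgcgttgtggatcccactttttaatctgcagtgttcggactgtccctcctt
Rom1, chr19:8929357-8929606, strand -: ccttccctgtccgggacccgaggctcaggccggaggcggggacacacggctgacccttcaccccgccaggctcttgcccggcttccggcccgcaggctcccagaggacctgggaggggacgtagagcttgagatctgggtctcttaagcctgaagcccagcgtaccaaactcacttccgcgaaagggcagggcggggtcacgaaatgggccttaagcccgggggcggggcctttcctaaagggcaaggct
Prom1, chr5:44101737-44101986, strand -: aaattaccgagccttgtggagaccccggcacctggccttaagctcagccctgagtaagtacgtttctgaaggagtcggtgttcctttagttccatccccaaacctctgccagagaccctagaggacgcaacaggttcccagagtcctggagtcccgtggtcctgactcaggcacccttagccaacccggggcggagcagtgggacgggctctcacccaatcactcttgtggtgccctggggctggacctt
Tulp1, chr17:28365217-28365466, strand -: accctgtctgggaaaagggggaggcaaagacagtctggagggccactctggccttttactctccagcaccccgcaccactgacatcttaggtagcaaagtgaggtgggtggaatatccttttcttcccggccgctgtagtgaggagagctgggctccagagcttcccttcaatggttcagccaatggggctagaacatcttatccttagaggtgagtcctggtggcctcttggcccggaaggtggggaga
Cdhr1, chr14:37098348-37098597, strand -: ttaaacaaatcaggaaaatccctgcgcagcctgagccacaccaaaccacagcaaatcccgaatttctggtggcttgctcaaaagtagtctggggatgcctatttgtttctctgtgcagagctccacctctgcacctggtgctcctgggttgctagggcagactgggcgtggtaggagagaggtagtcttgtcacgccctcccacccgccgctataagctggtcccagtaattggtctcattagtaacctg
Abca4, chr3:122044210-122044459, strand +: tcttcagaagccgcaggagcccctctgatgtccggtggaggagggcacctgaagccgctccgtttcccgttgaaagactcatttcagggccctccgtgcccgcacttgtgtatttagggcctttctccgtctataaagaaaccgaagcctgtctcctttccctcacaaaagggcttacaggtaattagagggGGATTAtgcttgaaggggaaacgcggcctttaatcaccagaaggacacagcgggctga

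In these promoters 4 motifs of 6 letters were searched on both strands, over 300 bases that end 50 bases after the start. AACAAT and ACAAAG are cores bound by SOX factors, TAATCC is the core of the photoreceptor factor CRX, and TGCTGA is a partial site of the rod factor NRL. Prph2 held ACAAAG, read as CTTTGT with its first base at position -92, counted back from the start. Abca4 held TAATCC, read as GGATTA from position -58, and ACAAAG after its start. The other 6 matched genes, Rom1, Prom1, Tulp1 and Cdhr1 printed here and Impg1 and Impg2 not, held none of the 4 motifs, and no matches overlapped. Of 21263 promoters of protein-coding genes, 9.05% held AACAAT, 16.8% ACAAAG, 6.42% TAATCC and 18.1% TGCTGA. The GC content of the 300 bases was highest at Rom1, at 64.0%, and lowest at Impg2, at 45.7%.

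At P17 all 10 genes carried both histone marks and 6 carried a SOX9 peak, whereas at P2 all 10 carried H3K27ac, 5 carried H3K4me3 and 3 carried SOX9. A gene counts as carrying a peak when one overlaps the gene or 5 kb on either side by at least 1 bp. H3K4me3 lay at 5 of 10 at P2, near the background of 49.3% of protein-coding genes, and at 10 of 10 at P17, where the background was 50.9%. H3K27ac lay at 10 of 10 at both ages, against 81.8% at P2 and 57.0% at P17. SOX9 lay at 3 of 10 at P2, near its background of 27.7%, and at 6 of 10 at P17, where the background was 15.7%. The P2 count was 1 of 10 (Tulp1) with as many of the widest P2 peaks as the P17 list holds, against 14.5%, and with the wider 50% of the P2 list, against 13.8%. With the wider 50% of the P17 list SOX9 lay at 4 of 10, against 8.39%. SOX8 lay at 1 of 10 at P2 against 15.1%, and at 3 of 10 at P17 against 13.0%. Of 10 Müller glia markers counted in the same way, 5 had SOX9 and 4 SOX8 at P2, and 1 had each at P17, Apoe for SOX9 and Dkk3 for SOX8.

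The start sites of the 8 genes with a promoter entry were read against 17492 protein-coding genes. At P2 SOX8 covered 0 of 8 starts (12.2% of genes), SOX9 2 (22.8%), H3K4me3 4 (44.8%) and H3K27ac 7 (60.7%). At P17 SOX8 covered 2 of 8 (8.40%), SOX9 4 (10.3%), and H3K4me3 (46.0%) and H3K27ac (46.6%) 8 each. The start lay under a peak at P17 and not at P2 in Rom1 and Tulp1 for SOX8 (2.40% of genes) and in Prph2 and Tulp1 for SOX9 (2.32%). It did so in Abca4, Cdhr1, Impg1 and Impg2 for H3K4me3 (4.67%) and in Impg1 for H3K27ac (2.40%). No start lay under a peak at P2 and outside every peak of that target at P17.

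**Figure D1:**
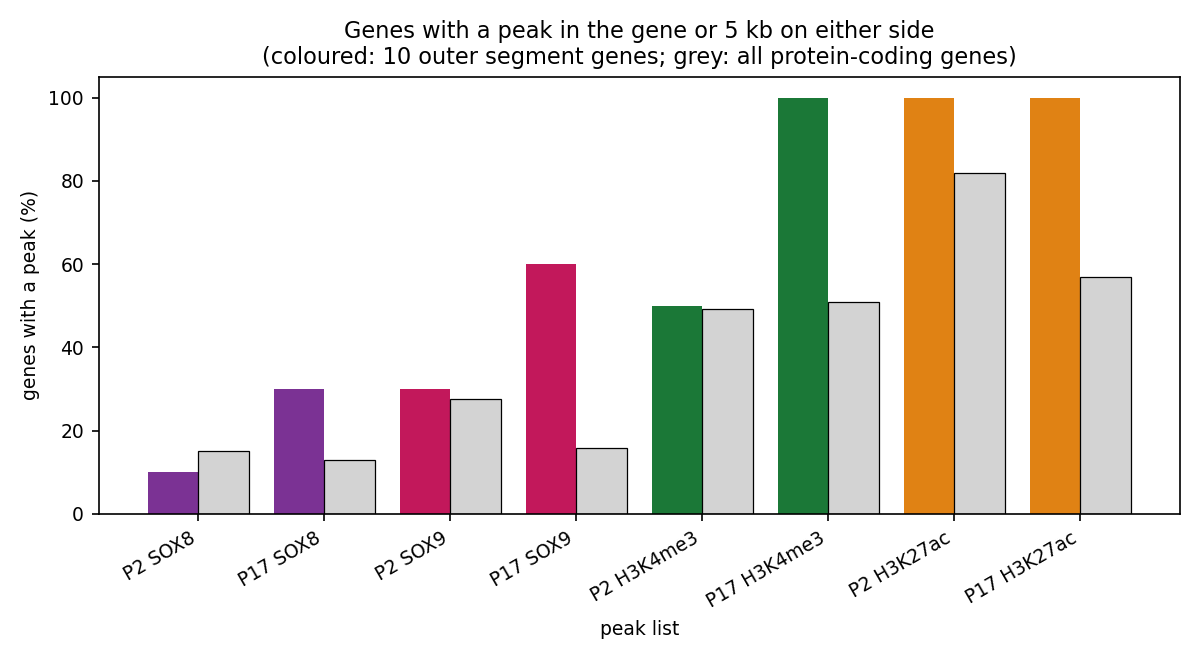
Percent of genes with a peak in the gene or 5 kb on either side (y axis) in each of the 8 peak lists (x axis), for the 10 outer segment genes (coloured bars) and all 21887 protein-coding genes (grey bars). The coloured bar stands near the grey one for P2 SOX9 and P2 H3K4me3 and well above it for P17 SOX9, at 6 of 10 genes against 15.7%.

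Peaks present at P17 and absent at P2 are called gained. H3K4me3 was gained at 5 of the 10 genes, Rp1l1, Abca4, Cdhr1, Impg1 and Impg2, and lost at none, against 5.0% of protein-coding genes gaining and 3.40% losing a peak. SOX9 was gained at Prph2, Rp1 and Rp1l1 and lost at none, against 4.35% and 16.4%. SOX8 was gained at Prph2 and Rom1 and lost at none, against 4.94% and 7.0%. No gene of the 10 gained or lost H3K27ac, for which the background was 0.315% gained and 25.1% lost. With both lists of a target reduced to equal numbers of widest peaks, SOX9 was gained at 5 genes, with Rom1 and Prom1 added, against 8.16% of protein-coding genes. H3K27ac was then gained at 3 of 10, Rp1, Cdhr1 and Impg2, near its background of 23.8%.

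**Figure D2:**
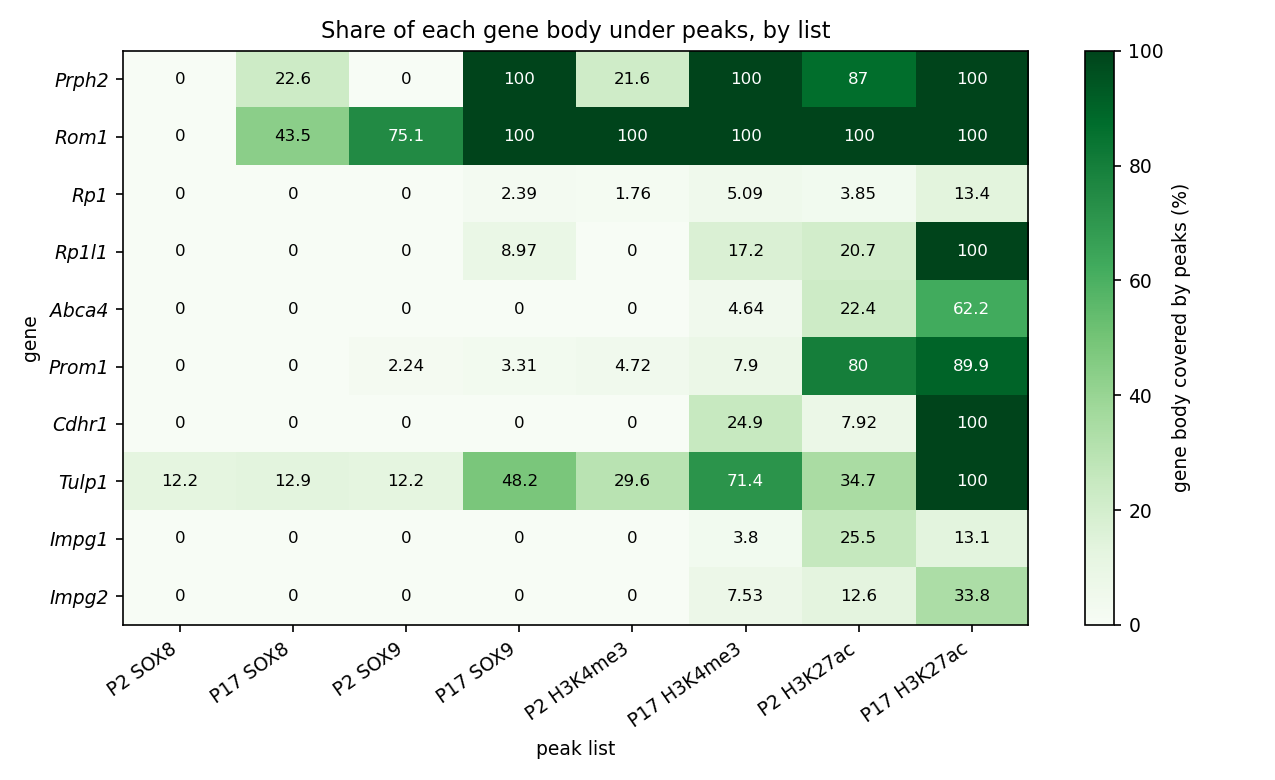
Share of each gene body under peaks, in percent (colour and printed value), for the 10 genes (rows) in the 8 peak lists (columns, P2 beside P17 for each target). Prph2 goes from 21.6% to 100% under H3K4me3, and 5 genes are wholly covered by P17 H3K27ac.

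The disc rim gene Prph2, on the plus strand of chr17 at 46910478 to 46924933 (14456 bp), had the widest P17 H3K4me3 peak of the whole list. That peak spanned chr17:46902367-46930338, 27972 bp, and ranked 1 of 9629 by width. At P2 the peak over the same start site was 3980 bp wide and ranked 3288 of 9134. The width thus differed 7.03-fold, a ratio reached by 0.0276% of 7236 genes whose start sites lay under H3K4me3 at both ages. The P17 peak reached 8111 bp before the start and 19860 bp after it, past the end of the gene and into Ubr2, whose own start lies 100054 bp away.

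Prph2 had no SOX peak at P2. At P17 its SOX9 peak, chr17:46908952-46932762, was 23811 bp wide and ranked 6 of 2855. It covered the whole gene, and 89.8% of it lay under H3K4me3 and 100% under H3K27ac. The P17 SOX8 peak was 3261 bp wide, began 4094 bp after the start and ended inside the gene, so that it covered 22.6% of the gene but not the start site. The single ACAAAG match of the printed promoter lies under the SOX9 peak and outside the SOX8 peak. Any match there would do so, because the SOX9 peak begins 1526 bp before the start, so the position tells nothing of either factor. H3K27ac covered 87.0% of the gene in 4 peaks at P2 and 100% in 1 peak of 40978 bp at P17.

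The partner gene Rom1, on the minus strand of chr19 at 8927382 to 8929356, is only 1975 bp long, and its start lies 307 bp from the start of Eml3, a gene transcribed the other way. Every peak over the Rom1 start also covered the start of Eml3 in the SOX, H3K4me3 and H3K27ac lists, so peaks cannot be assigned to either gene. The P17 H3K27ac peak there was 32481 bp wide and also covered the starts of B3gat3 and Mta2, among others. H3K4me3 covered all of Rom1 at both ages, with a peak of 5896 bp at P2 and of 14680 bp at P17, a 2.49-fold difference. The P17 peak ranked 32 of 9629 and also spanned the whole of B3gat3. SOX9 covered 75.1% of the gene at P2, in a peak of 2450 bp, and 100% at P17, in a peak of 7027 bp. SOX8 had no peak at P2 and one of 3332 bp at P17, over 43.5% of the gene. Rom1 was the only one of the 8 genes with a known start whose start lay under SOX8 and SOX9 at P17 and under SOX9 at P2.

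**Figure D3:**
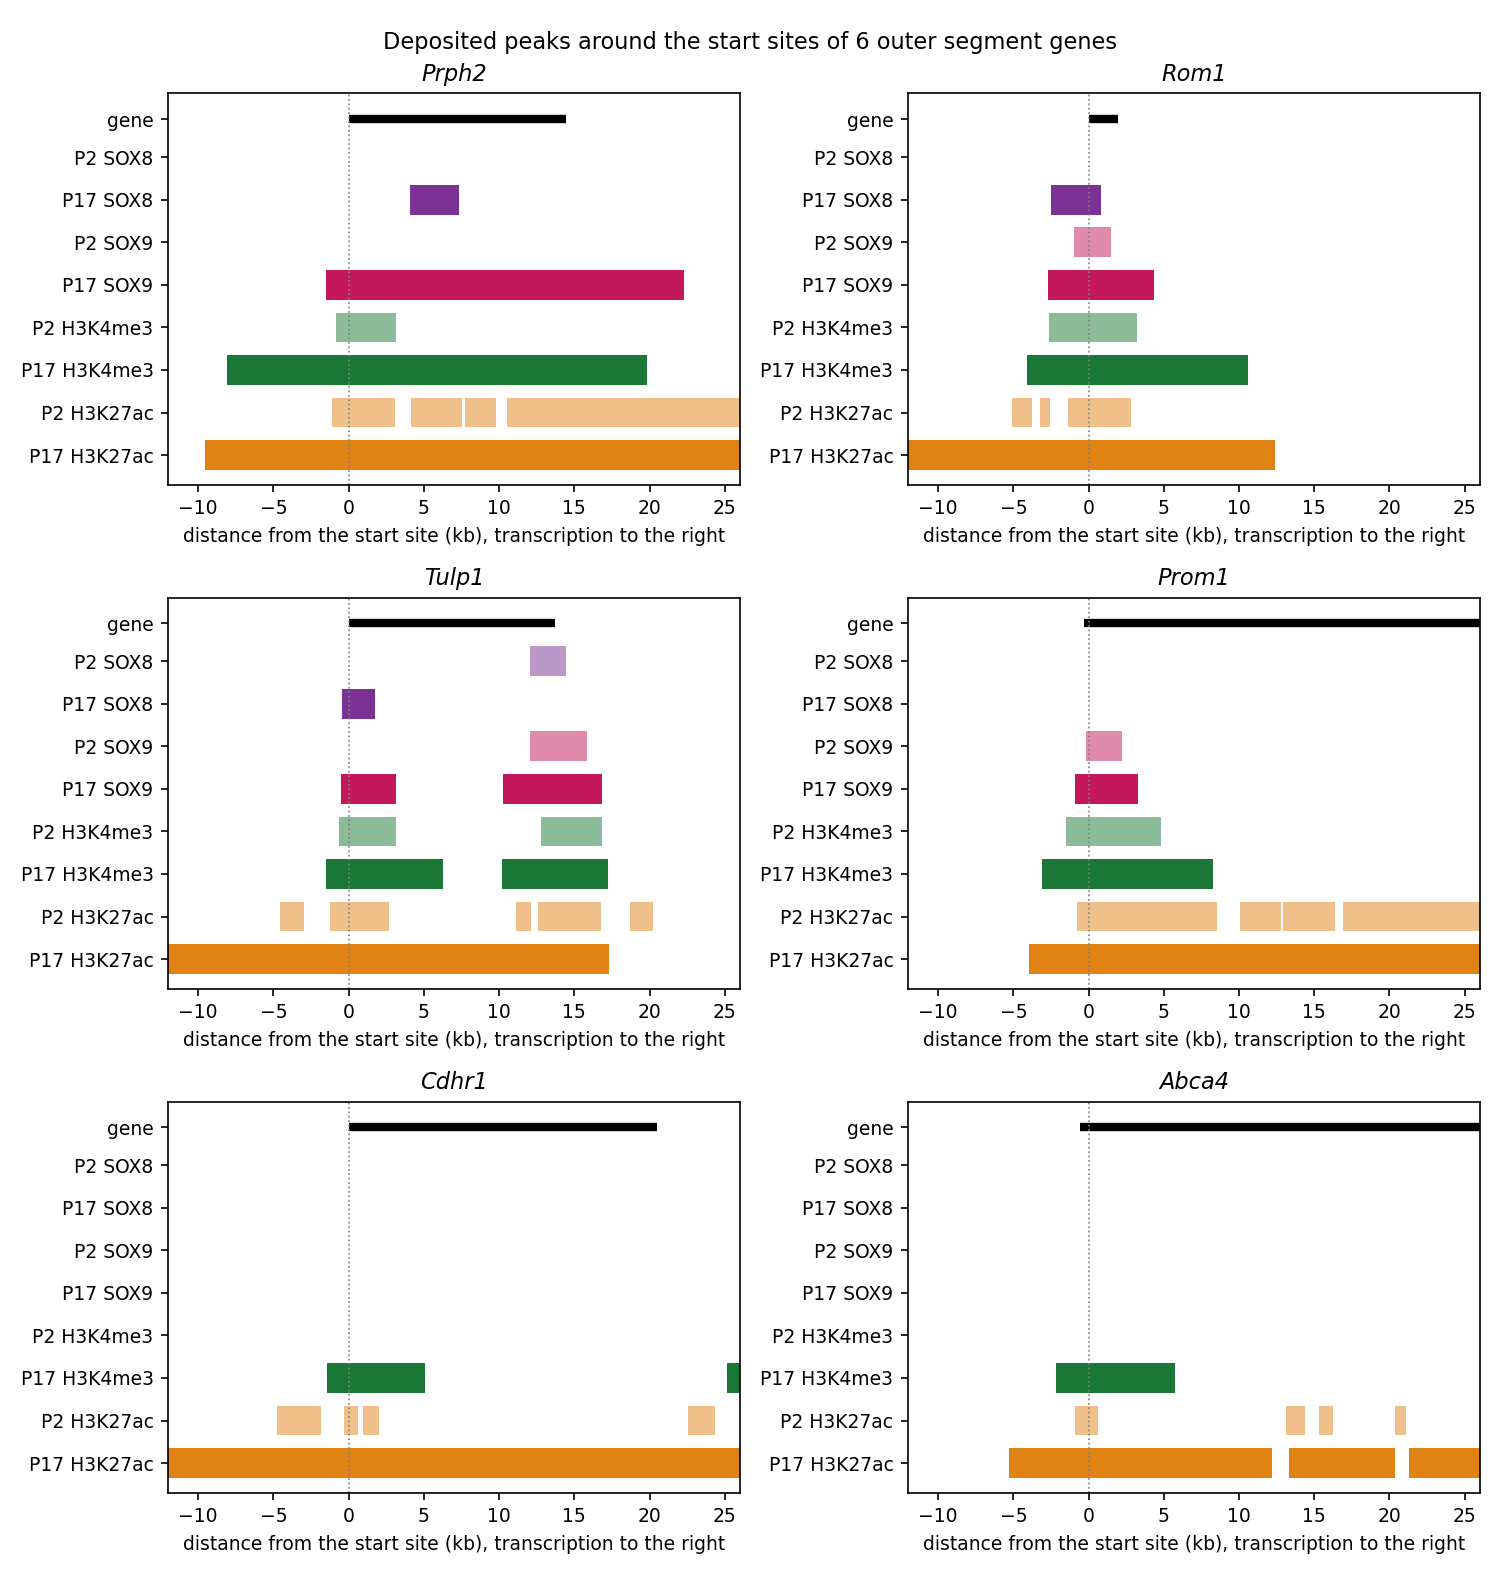
Peaks of the 8 lists (rows; pale bars P2, full colour P17) by distance from the start site in kb, with transcription to the right and the gene as a black bar, for 6 genes; bars that reach a panel edge continue beyond it. The P17 H3K4me3 peak at Prph2 is 27972 bp wide against 3980 bp at P2, and Tulp1 has SOX peaks at its start only at P17.

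The axonemal genes Rp1 and Rp1l1 had SOX9 without SOX8 at P17 and no SOX peak at P2. Rp1 spans 293594 bp of chr1, from 4115673 to 4409266, with 7 transcripts in the table, and its strand and starts are not in the promoter table. Its H3K4me3 peak lay inside the gene, 48216 bp from the upper end at P2, and was 5156 bp wide at P2 and 14958 bp at P17. The P17 peak, chr1:4348620-4363577, ranked 29 of 9629, and the ratio of widths was 2.90. The P17 SOX9 peak of 7024 bp, chr1:4354051-4361074, lay wholly under both marks. Rp1l1, on chr14 from 63992431 to 64033506, had no H3K4me3 peak at P2 and one of 8132 bp at its lower end at P17. A SOX9 peak of 5000 bp, chr14:63991116-63996115, lay at the same end, 95.4% of it under H3K4me3. H3K27ac covered 20.7% of Rp1l1 in 6 peaks at P2 and all 41076 bp of it in 1 peak of 52092 bp at P17. Among the 5869 protein-coding genes at least as long as Rp1l1, 0.579% were wholly covered.

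Of the genes for disc formation and retinoid transport, Prom1 carried SOX9 at both ages, while Abca4 and Cdhr1 carried no SOX peak. Prom1, on the minus strand of chr5 from 43993621 to 44102047, has 2 listed starts, of which the SOX9 peaks and the P2 H3K4me3 peak covered the outer one only and the P17 H3K4me3 peak both. The SOX9 peak there was 2426 bp wide at P2 and 4150 bp at P17 (chr5:44098457-44102606), wholly under both marks at each age. H3K4me3 was 6316 bp wide at P2 and 11382 bp at P17, a 1.80-fold difference. H3K27ac covered 80.0% of Prom1 at P2 in 24 peaks and 89.9% at P17 in 6 peaks, the widest of 67259 bp.

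Cdhr1, on the minus strand of chr14 from 37077849 to 37098347, had no H3K4me3 at P2 and a peak of 6562 bp over its start at P17. A second P17 H3K4me3 peak within 5 kb of the gene lay at the start of Lrit2. H3K27ac covered 7.92% of Cdhr1 at P2 and 100% at P17, under a peak of 67469 bp that also held Lrit1, Lrit2 and Rgr. The nearest P17 SOX9 peak, 6184 bp wide, lay 19.6 kb from the gene at Lrit1. Abca4, on the plus strand of chr3 from 122043891 to 122180070, likewise had H3K4me3 only at P17, 7913 bp wide over its start. H3K27ac covered 22.4% of Abca4 at P2 in 23 peaks and 62.2% at P17 in 13. The nearest P17 SOX9 peak lay 111.6 kb away.

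Tulp1, on the minus strand of chr17 from 28351515 to 28365216, was the only one of the 10 genes with SOX8 and SOX9 at P2, but those peaks lay at its far end. The P2 SOX8 peak of 2394 bp and SOX9 peak of 3796 bp were 12034 and 12029 bp from the Tulp1 start, and both covered the start of Tead3, a gene of the Hippo pathway 709 bp beyond the end of Tulp1. At P17 both factors had a peak over the Tulp1 start itself, of 2245 bp for SOX8 and 3669 bp for SOX9 (chr17:28362080-28365748). At the Tead3 end SOX9 kept a peak, of 6609 bp, and SOX8 had none. H3K4me3 lay at both ends at both ages, and its peak over the Tulp1 start was 3774 bp wide at P2 and 7770 bp at P17. H3K27ac covered 34.7% of Tulp1 at P2 and 100% at P17.

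The matrix genes Impg1 and Impg2 had no SOX peak at either age, and each had H3K4me3 over its start at P17 only. Impg1, on the minus strand of chr9 from 80312773 to 80465654, had a P17 H3K4me3 peak of 8018 bp. It was the only gene of the 8 with a known start whose start lay outside P2 H3K27ac, the nearest such peak being 581 bp away. It was also the only gene of the 10 with less of its body under H3K27ac at P17 (13.1%) than at P2 (25.5%). With equal numbers of widest peaks the order turned, the P2 share then being 7.36%. Impg2, on the plus strand of chr16 from 56203839 to 56273753, had a P17 H3K4me3 peak of 5531 bp, and 12.6% of the gene lay under H3K27ac at P2 and 33.8% at P17. The nearest P17 SOX9 peaks lay 146.4 kb from Impg1, at Myo6, and 1117 kb from Impg2.

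**Figure D4:**
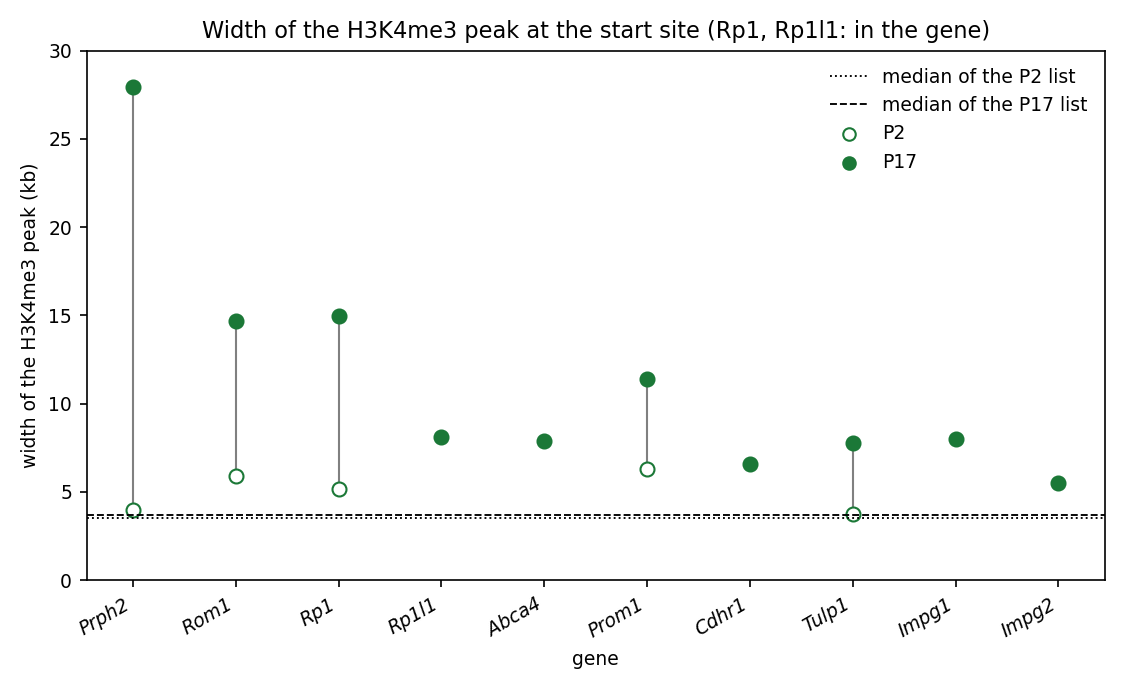
Width of the H3K4me3 peak in kb (y axis) over the start site of each gene (x axis), or within the gene for Rp1 and Rp1l1, at P2 (open circles) and P17 (filled circles), with the median width of all peaks in each list as lines. All 10 filled circles lie above the medians, which are 3542 bp at P2 and 3703 bp at P17, and 5 genes have no P2 peak.

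Width at P17 was what the H3K4me3 peaks of these genes shared. In 9 of the 10, all but Impg2, the gene body held a peak from the widest 10% of the P17 list, a limit chosen after the widths were seen. The same held for 5.47% of protein-coding genes and for 11.5% of those with a P17 H3K4me3 peak in the body. At P2 it held for Rom1 and Prom1, 2 of the 5 genes with a peak, against 11.2%, or 5.14% of all genes. Of the 4 genes with a start under H3K4me3 at both ages, Prph2, Rom1 and Tulp1 had a peak over 2 times as wide at P17, against 2.27% of 7236 genes, for which the median ratio was 1.05. A wider peak at P17 was found in 4 of 4, against 58.6%. At P17 the peak reached farther after the start than before it in 8 of 8, against 78.7% of genes (at P2 in 4 of 4, against 77.9%), with medians of 2299 bp before and 6017 bp after the start. Over all genes those medians were 1401 and 2192 bp.

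H3K27ac at P17 covered 5 of the 10 genes wholly and 13.1% (Impg1), 13.4% (Rp1), 33.8% (Impg2), 62.2% (Abca4) and 89.9% (Prom1) of the rest. Prph2, Rom1, Rp1l1, Cdhr1 and Tulp1 were covered from end to end, 5 of 10 against 3.88% of protein-coding genes, and at P2 only Rom1 was, against 2.19%. The median share of the gene body was 23.9% at P2 and 95.0% at P17, where the medians over all protein-coding genes were 20.8% and 2.01%. With as many of the widest P2 peaks as the P17 list holds, the P2 medians were 6.86% in the 10 genes and 0% over all genes. At P2 114 H3K27ac peaks, of 437 to 20985 bp, lay at the 10 genes, and at P17 42 peaks of 1489 to 67469 bp. The covered share was larger at P17 in 8 of the 10 genes, all but Rom1 and Impg1, against 18.4% of all genes. For H3K4me3 it was larger in 9 of 10 (all but Rom1) against 29.4%, and 5 of these had gained their peak. Rom1 lay wholly under both marks at both ages, so that its share could not rise. For SOX9 it was larger in 6 against 10.6% and for SOX8 in 3 against 8.32%, all the genes with such a P17 peak. Any P17 coverage was found in 52.9% of all genes for H3K27ac, 47.6% for H3K4me3, 13.5% for SOX9 and 10.9% for SOX8. Only such genes could have a larger share at P17. H3K4me3 covered the whole of Rom1 at P2 (1.70% of genes) and of Prph2 and Rom1 at P17 (1.84%). P17 SOX9 covered the whole of the same pair (1.08%). These shares run over genes of all lengths. Rom1, at 1975 bp, is shorter than the median peak of the H3K4me3, P17 SOX9 and P17 H3K27ac lists. The median P2 H3K27ac peak was 1166 bp wide. Among genes at least as long as Cdhr1 or Prph2, P17 H3K27ac covered 0.989% and 1.29% wholly, respectively.

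Every P17 SOX peak at these genes lay within H3K27ac. At P17 10 SOX peaks lay at 6 of the genes, and 10 of 10 were wholly under H3K27ac and 8 of 10 wholly under H3K4me3. Over the whole P17 lists, 61.8% of SOX8 and 46.3% of SOX9 peaks were wholly under H3K27ac, and 50.4% and 27.2% wholly under H3K4me3. Among the 10496 protein-coding genes that carried both marks at P17, as all 10 do, 28.6% had SOX9 and 24.1% had SOX8. The SOX9 background was thus higher among marked genes than over all genes, and the part that the extent of the marks has in these counts was not tested. SOX8 and SOX9 coincided at Prph2, Rom1 and Tulp1 at P17, 3 of 10 against 9.29%, and each of the 3 SOX8 peaks lay wholly within a SOX9 peak. Of the 10 genes, 4 had no peak in any SOX list, against 66.1% of protein-coding genes.

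Other genes of the same compartment were counted in the same way. The shares over all protein-coding genes were 49.3% at P2 and 50.9% at P17 for H3K4me3. They were 27.7% and 15.7% for SOX9, and 15.1% and 13.0% for SOX8. Of 12 further outer segment genes, for channel, disc and matrix proteins among others, 11 had H3K4me3 at P17 and 5 at P2, the exception at P17 being Atp8a2. In that list SOX9 peaks lay at 8 of 12 at P17 and at 2 of 12, Prcd and Atp8a2, at P2. The median share of the gene body under H3K27ac in that list was 39.2% at P2 and 97.8% at P17. Of 17 genes of the connecting cilium and axoneme, which other cells use too, 17 had H3K4me3 at P17 and 13 at P2. SOX9 peaks lay at 7 of these 17 at P2 and at 4, Rpgrip1, Fam161a, Arl3 and Nphp4, at P17. SOX8 peaks lay at Rpgrip1 and Nphp4 at P2 and at Nphp4 at P17. H3K27ac covered a median of 50.1% of the gene body of these 17 genes at P2 and 30.2% at P17. Over all protein-coding genes those medians were 20.8% and 2.01%.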

How the data were processed

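CUT&RUN libraries of SOX8, SOX9, H3K4me3, H3K27ac and IgG from P2 and P17 mouse retina were made by the authors, and 8 peak lists were used. Per the submitters' processing notes, Bowtie2, SEACR and the build GRCm38 were used, with no settings or roles given. Each deposited list gives chromosome, start and end, and the deposited score is 0 in every peak. Threshold, use of IgG and how libraries were combined are not given in the sources used here. Each list was assigned to its target and age by its name.

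Peaks were overlapped with gene bodies and 5 kb flanks of a GRCm38.p6 gene table (minimum 1 bp), and bases of the gene body under merged peaks were divided by gene length (Python 3.11.15, pandas 2.3.3). Start sites were those of the RefSeq promoter table, which covers 17492 of 21887 protein-coding genes. The overlap code was checked against base-by-base counts on simulated intervals. All 10 genes are named, with some of the other genes under their peaks. The genes, lists and limits were chosen with earlier results of these data known. No statistical test was run. The SOX8 count of one list is not reported here. Alternatives were other flanks (none, 1 or 10 kb), a 50% overlap, the wider 50% of each list, equal numbers of widest peaks, peaks on the body or promoter or over the start, and other backgrounds.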

Additional observations from a re-analysis of the deposited data

How the results depend on the processing

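No paired analysis was possible because the lists name no replicate, and for the same reason no library could be left out. The same numbers of genes carried peaks with no flanks, flanks of 1 or 10 kb, a 50% overlap, or the body and promoter alone. With the wider 50% of each list and with equal numbers of widest peaks, P2 SOX9 lay at 1 gene (Tulp1) in place of 3. With equal numbers, SOX9 was gained at 5 genes in place of 3 (8.16% of all protein-coding genes) and H3K27ac at 3 in place of 0 (23.8%), and the median share of the gene body under P2 H3K27ac was 6.86% in place of 23.9%. The wider 50% of peaks left P17 SOX9 at 4 genes (Prph2, Rom1, Rp1 and Tulp1) and took the median share under P17 SOX9 from 2.85% to 0%. It also left P17 SOX8 at 2 genes (Prph2 and Rom1) in place of 3, without Tulp1. Equal numbers left P2 H3K27ac at 7 genes in place of 10. No shares over all genes were taken for these SOX8 and P2 H3K27ac counts. Counting peaks over the start site, a choice made after seeing the data, took P2 SOX8 from 1 gene to 0 and gained H3K27ac from 0 genes to 1. All 49943 genes of the table were also taken as background. At P2 the share with a peak was then 8.83% for SOX8, 16.3% for SOX9, 28.3% for H3K4me3 and 74.7% for H3K27ac. At P17 the share was 7.37% for SOX8, 9.17% for SOX9, 29.2% for H3K4me3 and 38.2% for H3K27ac. Depth is unknown, so a missing peak does not show that a signal is absent.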

Other observations

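Of 8 photoreceptor transcription factor genes, 7 had H3K4me3 at P2, the exception being Samd7, and 8 had it at P17. SOX9 peaks lay at 6 of 8 at each age, with Prdm1 on the P2 list alone and Nrl on the P17 list alone. SOX8 peaks lay at Crx and Mef2d at P2 and at Crx, Nrl and Mef2d at P17. The median share of the gene body under H3K27ac was 76.2% at P2 and 100% at P17, against 20.8% and 2.01% over all protein-coding genes. Over those genes H3K4me3 lay at 49.3% at P2 and 50.9% at P17. For SOX9 those shares were 27.7% and 15.7%, and for SOX8 15.1% and 13.0%.

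Of 8 genes of retinal progenitors, SOX9 lay at 8 and SOX8 at 6 at P2, and at P17 SOX9 lay at Lhx2, Rax and Pax6 and SOX8 at Rax. H3K4me3 lay at 8 of them at P2 and at 5 at P17, against 49.3% and 50.9% of protein-coding genes. For SOX9 those shares were 27.7% and 15.7%, and for SOX8 15.1% and 13.0%.

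Among markers of pigment epithelium, microglia and endothelium, SOX9 peaks at P17 lay at 1 of 8 pigment epithelium genes, Rgr beside Cdhr1. That count includes 5 kb flanks, and the P17 SOX9 peak nearest to Cdhr1 overlapped Lrit1, not the body of Rgr. At P17 both SOX8 and SOX9 lay at 1 of 6 microglia genes, Aif1, and at 0 of 6 endothelial genes. The shares over all protein-coding genes were 15.7% for SOX9 and 13.0% for SOX8. P17 SOX9 covered 0 of 7 listed starts of the pigment epithelium genes and 0 of 4 of the microglia genes. Aif1 had a peak in all 8 lists. At P2 SOX9 lay at Best1, Rdh5, Aif1 and Kdr, against 27.7% of genes.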
